A study of Mus musculus with 8 samples.

Results

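The cyclin-dependent kinase (CDK) inhibitor genes of senescence were examined in mouse embryonic fibroblasts (MEFs), cells grown out of dissociated embryos, with and without the ubiquitin ligase gene Smurf2. They are the INK4 genes Cdkn2a, Cdkn2b, Cdkn2c and Cdkn2d and the CIP/KIP genes Cdkn1a and Cdkn1b, taken by name. Of these 6 genes, 5 had a transcript cluster (the probe set of a transcribed region) annotated with that gene's symbol alone, out of 17501 genes measured in this way. The only cluster carrying the symbol of Cdkn1a also carried others, so Cdkn1a has no value here.

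The 8 arrays cover Smurf2-/- and wild-type MEFs, late and early passages, and the mixed BL and C57B6 backgrounds, with 1 array for each combination and 4 arrays on either side of each comparison. Mixed BL cells were at passage 33 when late and 6 when early, and C57B6 cells at passage 28 when late and 7 when early, so late and early differ in passage number between backgrounds. For mixed BL cells the labels give pools of 3 embryos in Smurf2-/- and 2 in wild-type cells. Each C57B6 culture was taken to stem from 1 embryo. Background, pooling and the embryos themselves therefore cannot be told apart. All cells were grown in 10% fetal bovine serum without other treatment, and the labels state no sex and do not tie the late and early arrays to one culture. Nothing in the labels says that the arrays are separate cultures, so the p-values below cover the spread among them and no more. With 1 array for each combination, no combination was repeated. The spread that limma uses is what its model leaves unexplained on these arrays. It mixes interactions that the model leaves out with any technical spread, and these cannot be told apart. Values are log2 differences from each cluster's own median over the 8 arrays, so a level can be set against other arrays but not against another gene.

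CDK inhibitors hold back the kinases that drive cells from G1 into S phase. The INK4 proteins bind Cdk4 and Cdk6 and keep them from their D-type cyclins, whereas the CIP/KIP proteins bind cyclin and kinase together and mainly restrain cyclin E and Cdk2. Both keep the retinoblastoma protein in its less phosphorylated, growth-arresting form and E2F target genes off. Serial culture is known to raise p16Ink4a in MEFs, and many lines that grow on indefinitely have lost the Cdkn2a locus or the p53 pathway. Cdkn2a encodes p16Ink4a and, from another first exon and reading frame, p19Arf, which frees p53 from Mdm2.

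Promoters of Cdkn2a, Cdkn2c and Cdkn1b, though not of every measured gene, are printed here to show how unlike these start sites are. The windows run from 250 bases before to 50 bases after a transcript start and come from RefSeq on GRCm38.p6, in which all 5 measured genes had a window. Capitals mark matches, on either strand, to the motifs searched: E2F sites (TTTCCCGC, TTTGGCGC, TTTCGCGC or TTTGCCGC), an E-box (CACCTG), the GC box (GGGCGG), a forkhead site (TGTTTAC) and the CCAAT box (CCAAT). The first Cdkn2a window lies at chr4:89294570-89294869, minus strand, at the upstream start from which Arf is known to be transcribed, and the second at chr4:89282143-89282442, minus strand, at the Ink4a start. The first Cdkn2c window lies at chr4:109666707-109667006, minus strand, and that of Cdkn1b at chr6:134920151-134920450, plus strand.
Cdkn2a, Arf start: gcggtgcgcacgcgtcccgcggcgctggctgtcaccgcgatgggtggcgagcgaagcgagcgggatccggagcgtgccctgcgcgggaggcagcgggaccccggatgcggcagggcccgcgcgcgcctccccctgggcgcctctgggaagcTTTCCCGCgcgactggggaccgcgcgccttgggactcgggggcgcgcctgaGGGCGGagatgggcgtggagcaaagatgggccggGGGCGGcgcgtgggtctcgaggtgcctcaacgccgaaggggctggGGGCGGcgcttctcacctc
Cdkn2a, Ink4a start: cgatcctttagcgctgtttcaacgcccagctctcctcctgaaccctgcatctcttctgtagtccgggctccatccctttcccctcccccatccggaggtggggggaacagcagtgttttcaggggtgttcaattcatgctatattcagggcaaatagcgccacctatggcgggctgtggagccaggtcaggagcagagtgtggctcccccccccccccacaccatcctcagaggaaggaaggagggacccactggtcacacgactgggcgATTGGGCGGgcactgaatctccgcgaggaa
Cdkn2c, first start: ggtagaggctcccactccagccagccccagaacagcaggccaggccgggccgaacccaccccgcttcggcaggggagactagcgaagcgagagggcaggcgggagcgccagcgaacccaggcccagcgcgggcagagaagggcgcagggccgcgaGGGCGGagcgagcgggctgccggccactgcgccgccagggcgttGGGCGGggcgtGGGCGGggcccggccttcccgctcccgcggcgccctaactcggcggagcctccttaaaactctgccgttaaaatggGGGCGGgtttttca
Cdkn1b: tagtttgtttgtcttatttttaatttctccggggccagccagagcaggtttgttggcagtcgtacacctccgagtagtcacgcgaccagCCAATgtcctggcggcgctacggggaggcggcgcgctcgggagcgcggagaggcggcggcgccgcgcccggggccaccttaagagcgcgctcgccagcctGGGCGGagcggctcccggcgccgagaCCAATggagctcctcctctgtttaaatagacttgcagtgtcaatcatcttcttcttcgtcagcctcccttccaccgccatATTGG

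The Arf window had 77.0% G and C and 45 CpG dinucleotides, and the Ink4a window had 60.3% and 12, against medians of 52.7% and 7 over the 32851 windows of 27025 genes. The Arf window held 1 E2F match and 3 GC boxes, and the Ink4a window held 1 GC box that overlaps its 1 CCAAT match. The first Cdkn2c window held 4 GC boxes at 73.3% G and C with 33 CpG dinucleotides. The Cdkn1b window held 3 CCAAT matches and 1 GC box at 62.0% G and C with 30 CpG dinucleotides. Among windows not printed, that of Cdkn2b held 1 GC box at 57.7% G and C with 18 CpG dinucleotides. That of Cdkn2d held 5 GC boxes and 1 CCAAT match at 66.3% with 22. The second Cdkn2c window held 1 CCAAT match and no GC box at 44% with 8. An E2F match stood in 2.26% of all windows, an E-box in 20.2%, a GC box in 35.7%, a forkhead match in 3.65% and a CCAAT match in 37.4%. None of the 4 printed windows held the E-box or forkhead letters. The one Cdkn2a cluster is annotated with both RefSeq transcripts, so the values below cannot tell p16Ink4a from p19Arf.

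Smurf2 served as the check of the labels. It averaged -0.88 ± 0.38 in Smurf2-/- arrays and 0.69 ± 0.22 in wild-type arrays (SD, n = 4 each), a difference of -1.57 ± 0.12 (SE) in the limma model across all genes (adjusted p = 0.0484). The genotype groups also differed in sex-linked genes: Xist, the RNA that silences one X chromosome, averaged -1.84 ± 0.23 in Smurf2-/- arrays and 2.52 ± 0.74 in wild-type arrays. The Y-linked genes Uty, Kdm5d and Eif2s3y were higher in Smurf2-/- arrays by 2.35, 2.27 and 3.50 on the log2 scale, and all 4 sex-linked genes passed in limma. The call of Smurf2 was lost in every alternative fitted over genes, with differences between -1.69 and -1.46 and adjusted p between 0.0981 and 0.578, and 0 genes passed for genotype after quantile normalisation, without X and Y linked genes, or with all 3 interactions. Genotype cannot be told apart from these sex-linked genes, from the sex they mark or from the embryos used in any genotype comparison below. All 12 fibroblast markers chosen for the check, collagens and Pdgfra among them, were lower in late arrays on average, with a median of -0.47 and none passing in limma. The marker mean over arrays ran between -0.80 and 0.67 in late arrays and between -0.08 and 0.79 in early arrays, and its part in the passage results was not tested. Among 6 epithelial markers 6 were above 0 in the passage difference, among 6 muscle markers 5, among 6 endothelial markers 3 and among 7 macrophage and leukocyte markers 2, with none passing in limma. The mean of the macrophage and leukocyte markers lay between -0.13 and -0.07 in late arrays and between 0.03 and 0.58 in early arrays, highest in the early mixed BL arrays (0.34 in Smurf2-/- and 0.58 in wild-type cells). Lyz2, the lysozyme of macrophages and granulocytes, stood at 2.07 in the early Smurf2-/- and 3.20 in the early wild-type mixed BL array and at no more than 0.19 elsewhere. Cd68, a lysosomal protein of macrophages, averaged -0.46 ± 0.27 in late and 0.43 ± 0.32 in early arrays (SD, n = 4 each) without overlap, as did 10.0% of all genes. The pan-leukocyte marker Ptprc stood at 0.05 in the early Smurf2-/- and 0.19 in the early wild-type mixed BL array. Lyz2 supplied most of the macrophage and leukocyte marker mean on the early mixed BL arrays. Of the other markers in that list, Adgre1 was also highest there (0.16 in Smurf2-/- and 0.23 in wild-type cells). Itgam and Ptprc were highest on the early wild-type mixed BL array. Cd68 and Cd14 were highest on the early wild-type C57B6 array (0.87 and 0.40), and Csf1r on the late wild-type mixed BL array (0.59). Centred values do not show whether a marker is absent.

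No measured CDK inhibitor passed an adjusted p of 0.05 in limma for genotype, passage or background, or for the interaction of any pair of these. At an unadjusted p under 0.05, 0 of the 5 passed for genotype, 1 for passage and 2 for background, against 7.55%, 17.3% and 13.5% of all genes. For the interactions 0 passed for genotype with passage, 2 for passage with background (Cdkn2b and Cdkn1b) and 0 for genotype with background, against 5.35%, 9.19% and 3.18% of all genes. Over all genes, 0.0286% were called for genotype, 0.0171% for passage and 0.0800% for background, and 0% for each interaction, so few genes of any kind passed. The comparisons below therefore give each gene's array values, its difference and the interval of that difference. In RNA from whole cultures, fewer cells of a kind and less RNA per cell cannot be told apart.

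**Figure D1:**
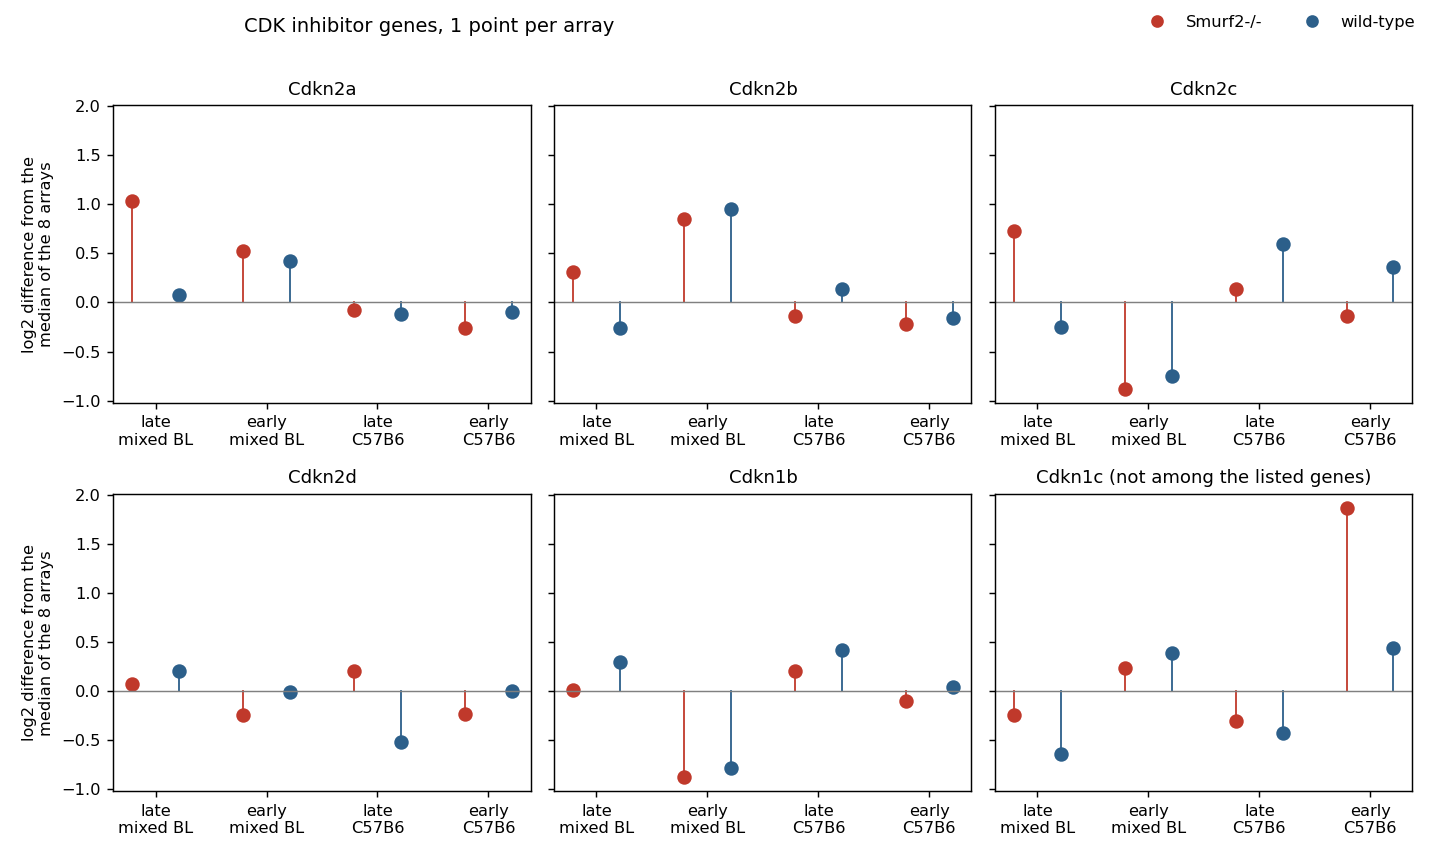
Log2 value of each measured CDK inhibitor gene and of Cdkn1c on each of the 8 arrays, relative to the median of the gene's clusters over the arrays, with Smurf2-/- beside wild-type for each background and passage class. Cdkn1b is lowest on the early mixed BL arrays (-0.87 in Smurf2-/- and -0.78 in wild-type), and Cdkn2a is highest on the late Smurf2-/- mixed BL array (1.03).

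Cdkn1b encodes p27Kip1, the CIP/KIP inhibitor that accumulates in cells deprived of growth factors or grown to confluence. It was higher in late than in early arrays by 0.66 ± 0.14 on the log2 scale (1.58-fold, 95% interval 0.31 to 1.01), which did not pass (limma, adjusted p = 0.135). In mixed BL cells it stood at 0.01 in late and -0.87 in early Smurf2-/- arrays, and at 0.29 in late and -0.78 in early wild-type arrays. In C57B6 cells it stood at 0.21 in late and -0.10 in early Smurf2-/- arrays, and at 0.43 in late and 0.04 in early wild-type arrays. The late array was higher in all 4 matched pairs, but the groups overlapped, because the early wild-type C57B6 array lay above the late Smurf2-/- mixed BL array. Late arrays averaged 0.23 ± 0.17 and early arrays -0.43 ± 0.47 (SD, n = 4 each; exact two-sided permutation p = 0.0571, where 0.0286 is the smallest possible).

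The passage difference of Cdkn1b was 0.88 in Smurf2-/- and 1.08 in wild-type mixed BL cells, against 0.31 in Smurf2-/- and 0.38 in wild-type C57B6 cells. The interaction of passage with background was 0.64 ± 0.12 (95% interval 0.32 to 0.95) and did not pass (limma, adjusted p = 0.327, with 0 of 17501 genes passing). Cdkn1b was lower in mixed BL than in C57B6 arrays by 0.48 ± 0.14 (adjusted p = 0.249), with differences of -0.78 in Smurf2-/- and -0.83 in wild-type cells at early passage and of -0.20 in Smurf2-/- and -0.13 in wild-type cells at late passage. The low early mixed BL arrays enter both the passage and the background difference of this gene. Lyz2 and the fibroblast marker Thy1 (2.76 in Smurf2-/- and 1.89 in wild-type cells) were highest on these arrays. Other macrophage and fibroblast markers did not all follow them, and the part of any marker was not tested.

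By genotype Cdkn1b was lower in the Smurf2-/- array of all 4 pairs, by between 0.09 and 0.29, with a mean difference of -0.18 ± 0.14 (95% interval -0.53 to 0.17; limma, adjusted p = 0.737). This difference was -0.08 without the late and -0.29 without the early wild-type mixed BL array. One sign in all 4 genotype pairs was seen in 20.3% of all genes, in 1 of the 5 measured CDK inhibitors. The gene has a pair of clusters, 10542310 and 10542317, which were averaged. In the mixed BL early pair they disagreed in direction: the first stood at -0.97 in Smurf2-/- and -0.51 in wild-type cells, the second at -0.78 in Smurf2-/- and -1.06 in wild-type cells. In the C57B6 pairs the first hardly differed by genotype, at -0.03 in both early and 0.41 in both late arrays. The C57B6 differences thus rest on the second, at -0.16 in Smurf2-/- and 0.12 in wild-type early arrays and at 0.015 and 0.44 in the late ones.

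Cdkn1c encodes p57Kip2, the imprinted CIP/KIP gene, and is given beside the listed genes because it belongs to the same family. It was lower in late arrays in all 4 pairs, averaging -0.40 ± 0.18 in late and 0.73 ± 0.76 in early arrays (SD, n = 4 each). The difference of -1.14 ± 0.30 did not pass in limma (adjusted p = 0.168), although the late and early arrays did not overlap (exact two-sided permutation p = 0.0286). Late and early arrays also did not overlap in 10.0% of all genes, and 27.0% had one sign in all 4 passage pairs. The early Smurf2-/- C57B6 array stood apart at 1.87, against 0.44 in its wild-type partner. The late minus early values of Cdkn1b and Cdkn1c thus had opposite signs in every pair.

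**Figure D2:**
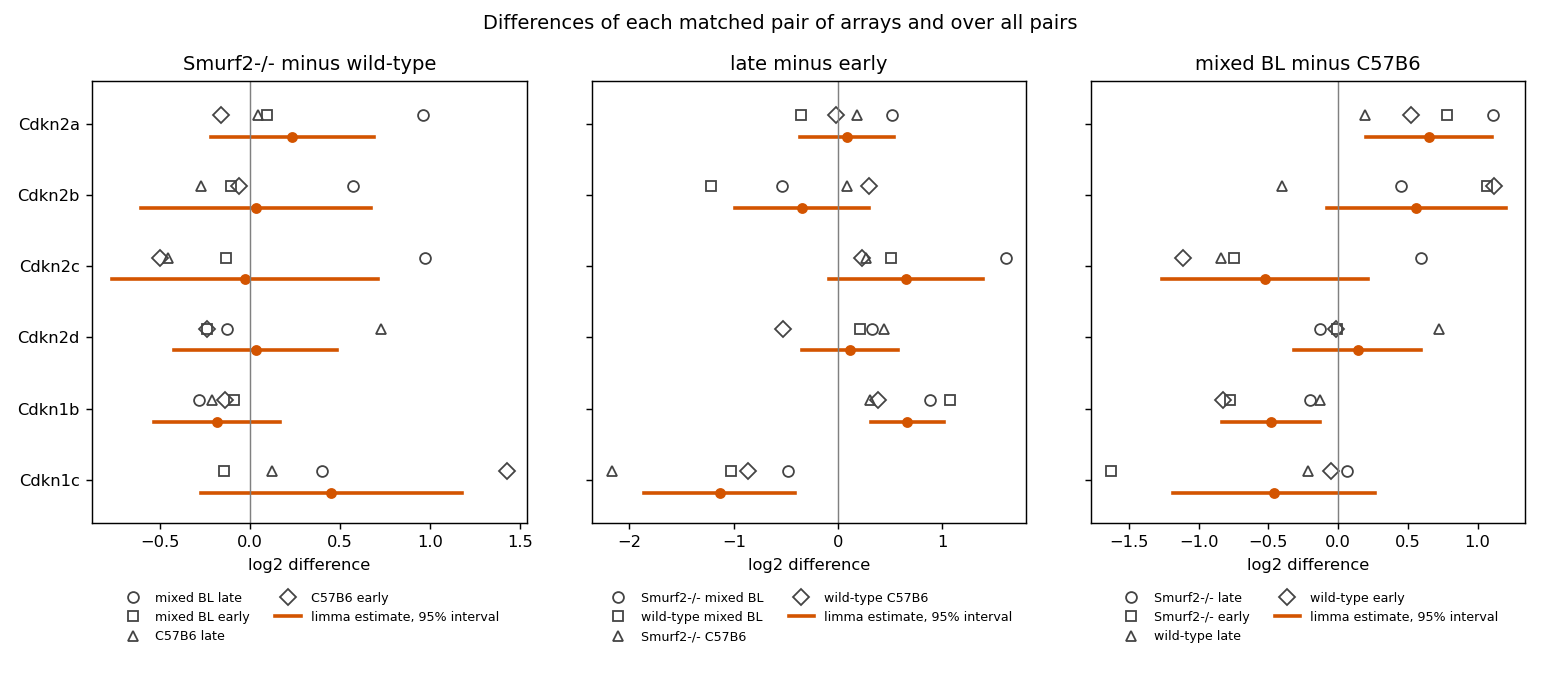
Differences in log2 value within matched pairs of arrays for each measured CDK inhibitor and Cdkn1c, as Smurf2-/- minus wild-type, late minus early, and mixed BL minus C57B6, with 1 open symbol for each of the 4 pairs and the limma difference with its 95% interval in orange. Cdkn1b lies above 0 in all 4 passage pairs (0.31 to 1.08) and Cdkn2a above 0 in all 4 background pairs (0.19 to 1.11).

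Cdkn2a was measured by 1 cluster on chromosome 4. Smurf2-/- mixed BL cells had 1.03 in the late and 0.52 in the early array, and wild-type mixed BL cells had 0.07 in the late and 0.43 in the early array. In C57B6 cells the Smurf2-/- arrays stood at -0.07 late and -0.26 early, and the wild-type arrays at -0.12 late and -0.10 early. All 4 mixed BL arrays lay above all 4 C57B6 arrays, which is also the case, in either direction, for 5.91% of all genes. Mixed BL arrays averaged 0.51 ± 0.40 and C57B6 arrays -0.14 ± 0.08 (SD, n = 4 each; exact two-sided permutation p = 0.0286, the smallest possible). The background difference of 0.65 ± 0.18 (1.57-fold, 95% interval 0.20 to 1.10) did not pass in limma (adjusted p = 0.232). The C57B6 arrays lay within -0.26 and -0.07, and the mixed BL arrays ran between 0.07 and 1.03.

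For both genotype and passage the 95% interval of the Cdkn2a difference included 0. Smurf2-/- arrays averaged 0.31 ± 0.59 and wild-type arrays 0.07 ± 0.25 (SD, n = 4 each), a difference of 0.23 ± 0.18 (95% interval -0.22 to 0.69; limma, adjusted p = 0.739). Smurf2-/- minus wild-type was 0.96 in late mixed BL cells, 0.09 in early mixed BL cells, 0.04 in late C57B6 cells and -0.16 in early C57B6 cells, so 1 of the 4 pairs supplies nearly all of the mean. Without either array of that pair the genotype difference was 0.05. Late minus early was 0.08 ± 0.18 (95% interval -0.37 to 0.53; limma, adjusted p = 0.833), with 0.52 in Smurf2-/- and -0.35 in wild-type mixed BL cells and with 0.18 in Smurf2-/- and -0.02 in wild-type C57B6 cells. The interaction of genotype with passage was 0.54 ± 0.32 (limma, adjusted p = 1.00), at 0.23 without either late mixed BL array and 0.84 without either late C57B6 array.

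Cdkn2b encodes p15Ink4b, an INK4 inhibitor that TGF-beta is known to induce through Smad proteins, and it lies beside Cdkn2a. Mixed BL cells had 0.31 late and 0.85 early in Smurf2-/- arrays, and -0.26 late and 0.96 early in wild-type arrays. C57B6 cells had -0.14 late and -0.22 early in Smurf2-/- arrays, and 0.14 late and -0.16 early in wild-type arrays. Both early mixed BL arrays were the highest, with the early C57B6 arrays at the low end, and the lowest value of all was that of the late wild-type mixed BL array. Late arrays averaged 0.01 ± 0.26 and early arrays 0.35 ± 0.63 (SD, n = 4 each), a difference of -0.34 ± 0.26 (95% interval -0.98 to 0.30; limma, adjusted p = 0.525). It was -0.07 without the late and -0.17 without the early wild-type mixed BL array, and -0.55 without the late wild-type C57B6 array. Lyz2 and Thy1 were highest on the early mixed BL arrays as well, but other macrophage and fibroblast markers did not all follow them. Dcn, Lum and Pdgfra were highest on the late Smurf2-/- mixed BL array, and Cd68 and Cd14 on the early wild-type C57B6 array. Over all clusters the early mixed BL arrays had the highest r of any pair of arrays (0.70). The part of any marker in the Cdkn2b values was not tested.

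The passage difference of Cdkn2b had opposite signs in the backgrounds, at -0.54 in Smurf2-/- and -1.22 in wild-type mixed BL cells and at 0.08 in Smurf2-/- and 0.30 in wild-type C57B6 cells. The interaction of passage with background was -1.07 ± 0.31 (95% interval -1.86 to -0.27) and did not pass (limma, adjusted p = 0.423), at -0.71 with the late array of wild-type mixed BL cells left out. By background the gene averaged 0.46 ± 0.56 in mixed BL and -0.10 ± 0.16 in C57B6 arrays (SD, n = 4 each), a difference of 0.56 ± 0.26 (limma, adjusted p = 0.431). By genotype the difference was 0.03 ± 0.26 (95% interval -0.61 to 0.67; limma, adjusted p = 0.977), with 0.57 in late and -0.11 in early mixed BL cells and with -0.28 in late and -0.06 in early C57B6 cells.

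A list of 6 genes around Cdkn2a and Cdkn2b was read for comparison, not all of them the nearest, which gives the order Ifnb1, Ifna2, Klhl9, Mtap, Cdkn2a, Cdkn2b, Dmrta1 and Elavl2 of the RefSeq gene table. Mtap, the methionine salvage enzyme next to Cdkn2a, is often deleted with it in tumours. In mixed BL cells Mtap stood at 0.11 late and 0.02 early in Smurf2-/- arrays and at -0.38 late and 0.22 early in wild-type arrays. In C57B6 cells it stood at 0.48 late and -0.02 early in Smurf2-/- arrays and at -0.37 late and -0.14 early in wild-type arrays. Mtap was lowest in the late wild-type arrays of both backgrounds, where Cdkn2a stood at 0.07 in mixed BL and -0.12 in C57B6 cells. Between backgrounds Mtap differed by 0.0058 ± 0.19, Klhl9 by 0.06 ± 0.10, Dmrta1 by 0.0054 ± 0.08 and Elavl2 by -0.05 ± 0.15, against 0.65 for Cdkn2a and 0.56 for Cdkn2b. The 6 listed genes had a median background difference of -0.0027, with 3 above and 3 below 0 and none passing (limma, smallest adjusted p = 0.755). Nearer genes that the list left out were added after its values were seen: Ifne differed by 0.02 ± 0.05, Ifna4 by -0.02 ± 0.08 and Zfp352 by 0.05 ± 0.06. The interferon alpha genes are close copies, so their probes may share signal. Whether Cdkn2a or Cdkn2b differed from their neighbours was not tested.

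**Figure D3:**
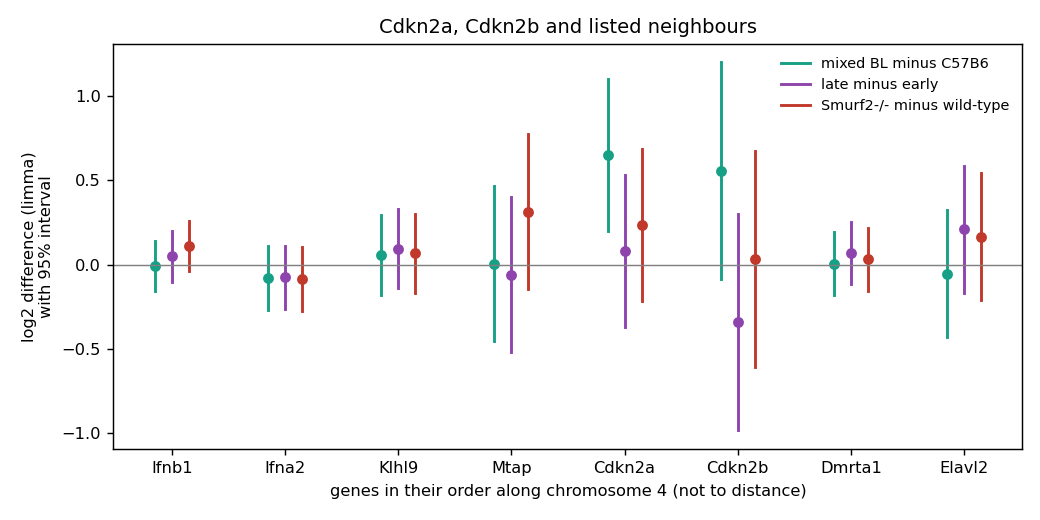
Differences in log2 value, with 95% intervals from limma, of Cdkn2a, Cdkn2b and 6 listed genes around them in gene order, without positions to scale, for background (mixed BL minus C57B6), passage (late minus early) and genotype (Smurf2-/- minus wild-type). Cdkn2a and Cdkn2b are above 0 in the background comparison at 0.65 and 0.56, and the 6 listed genes lie between -0.08 and 0.06.

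Cdkn2c encodes p18Ink4c, an INK4 inhibitor that restrains Cdk6 in particular. Mixed BL cells had 0.73 late and -0.88 early in Smurf2-/- arrays, and -0.25 late and -0.75 early in wild-type arrays. C57B6 cells had 0.13 late and -0.13 early in Smurf2-/- arrays, and 0.59 late and 0.37 early in wild-type arrays. As for Cdkn1b, the early mixed BL arrays, those with high Lyz2 and Thy1, were the lowest. Other macrophage and fibroblast markers did not all follow Lyz2 and Thy1, and the part of any marker was not tested. Late was higher than early in all 4 pairs, by 1.61 in Smurf2-/- and 0.50 in wild-type mixed BL cells and by 0.27 in Smurf2-/- and 0.23 in wild-type C57B6 cells. Late arrays averaged 0.30 ± 0.45 and early arrays -0.35 ± 0.58 (SD, n = 4 each), a difference of 0.65 ± 0.30 (1.57-fold, 95% interval -0.09 to 1.39; limma, adjusted p = 0.334). Without the late Smurf2-/- mixed BL array this difference was 0.30.

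One sign in all 4 passage pairs was seen in 27.0% of all genes, and in 2 of the 5 measured CDK inhibitors, Cdkn2c and Cdkn1b. By genotype Cdkn2c differed by -0.03 ± 0.30 (95% interval -0.77 to 0.71; limma, adjusted p = 0.982). Smurf2-/- minus wild-type was 0.97 in late mixed BL cells but -0.14 in early mixed BL, -0.46 in late C57B6 and -0.50 in early C57B6 cells. The interaction of genotype with background was 0.90 ± 0.52 (limma, adjusted p = 0.939), at 0.26 without the late and 1.54 without the early Smurf2-/- mixed BL array. By background Cdkn2c averaged -0.29 ± 0.73 in mixed BL and 0.24 ± 0.31 in C57B6 arrays (SD, n = 4 each), a difference of -0.53 ± 0.30 (limma, adjusted p = 0.532). It was -0.31 without the early wild-type C57B6 array and -0.88 without the late Smurf2-/- mixed BL array.

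Cdkn2d encodes p19Ink4d, the INK4 protein whose level is known to swing with the cell cycle, and lies on chromosome 9. Mixed BL cells had 0.08 late and -0.25 early in Smurf2-/- arrays, and 0.21 late and -0.01 early in wild-type arrays. C57B6 cells had 0.21 late and -0.23 early in Smurf2-/- arrays, and -0.52 late and 0.01 early in wild-type arrays. Its range was the narrowest of the 5 genes, and the lowest value was that of the late wild-type C57B6 array. Smurf2-/- minus wild-type was 0.73 in late C57B6 cells and between -0.24 and -0.13 in the other pairs, and late minus early was -0.53 in wild-type C57B6 cells and between 0.21 and 0.44 in the other pairs. Both odd pairs hold the late wild-type C57B6 array. Cdkn2d differed by 0.03 ± 0.19 between genotypes (95% interval -0.43 to 0.48), by 0.11 ± 0.19 between passages (95% interval -0.34 to 0.57) and by 0.14 ± 0.19 between backgrounds, with limma adjusted p of 0.968, 0.763 and 0.845.

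Read as a group, the 5 measured CDK inhibitors had 3 genes above and 2 below 0 by genotype, with a median of 0.03, against a median of 0.02 over all genes, of which 55.5% were above 0. By passage 4 were above and 1 below 0, with a median of 0.11, against 0.03 and 57.5% over all genes. By background 3 were above and 2 below 0, with a median of 0.14, against 0.0046 and 51.7% over all genes. Arrays did not overlap between genotypes for 2.17% of all genes and between passages for 10.0%, and for 0 of the 5 in either. One sign in all 4 background pairs was seen in 20.4% of all genes and in 2 of the 5, Cdkn2a above and Cdkn1b below 0.

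Over the 8 arrays Cdkn2a and Cdkn2b had a Pearson r of 0.63, Cdkn2c and Cdkn1b one of 0.79, and Cdkn2b and Cdkn1b one of -0.84. Cdkn2d had r between -0.24 and 0.21 with each of the others. All 8 points share their arrays and differ in background and passage, so these values only describe how the genes were arranged over the arrays. By the highest r over the same 8 arrays among all other genes, Cdkn2a was most like Pdss2 (0.985), Coq5 (0.977) and Lias (0.974). Cdkn2b was most like Shoc2 (0.976), S100a7a (0.974) and Pank2 (0.969), and Cdkn2c most like Ep400 (0.974), Prdm10 (0.965) and Apln (0.960). Cdkn2d was most like 6720489N17Rik (0.953), Mlycd (0.949) and Tmem207 (0.943), and Cdkn1b most like Dync2h1 (0.985), Smarcd1 (0.972) and Sesn3 (0.966). These genes were picked as the highest of all, so their coefficients carry no test.

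The kinases and cyclins that CDK inhibitors act on, with the retinoblastoma family, were measured for 14 of 15 listed genes (Ccnb1 had no cluster of its own). By genotype 8 were above and 6 below 0, with a median of 0.22, and 0 rose and 0 fell in limma, 5 of the 14 having an unadjusted p under 0.05, against 7.55% of all genes. The mitotic cyclin Ccnb2 was higher in Smurf2-/- than in wild-type arrays by 0.84 ± 0.27 and the E-type cyclin Ccne1 by 0.54 ± 0.18, while the D-type cyclin Ccnd2 was lower by 0.29 ± 0.10 and Rb1 by 0.38 ± 0.14 (limma, adjusted p = 0.651 for each). At late passage Ccnb2 stood at 1.26 in Smurf2-/- and -0.53 in wild-type C57B6 cells, and at 0.94 and -0.09 in mixed BL cells. At early passage it stood at 0.10 and -0.19 in C57B6 cells, and at 0.09 and -0.15 in mixed BL cells. Ccne1 also differed more at late passage in both backgrounds. For genotype with passage the list median was 0.55, and none of the 14 passed in limma. At an unadjusted p under 0.05, 5 of the 14 passed for this interaction, against 5.35% of all genes. By passage 5 were above and 9 below 0, with a median of -0.13, again 0 rose and 0 fell in limma, and 5 of the 14 had an unadjusted p under 0.05, against 17.3% of all genes. The D-type cyclins Ccnd3 and Ccnd2 were lower in late than in early arrays by 0.42 ± 0.08 and 0.48 ± 0.10, and Rb1 by 0.63 ± 0.14, while the related Rbl1 was higher by 0.56 ± 0.18 (limma, adjusted p = 0.122, 0.126, 0.142 and 0.223). By background 8 were above and 6 below 0, with a median of 0.01, and 2 of the 14 had an unadjusted p under 0.05, against 13.5% of all genes. Over all genes 55.5% were above 0 by genotype, 57.5% by passage and 51.7% by background, which also stands beside the lists below.

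**Figure D4:**
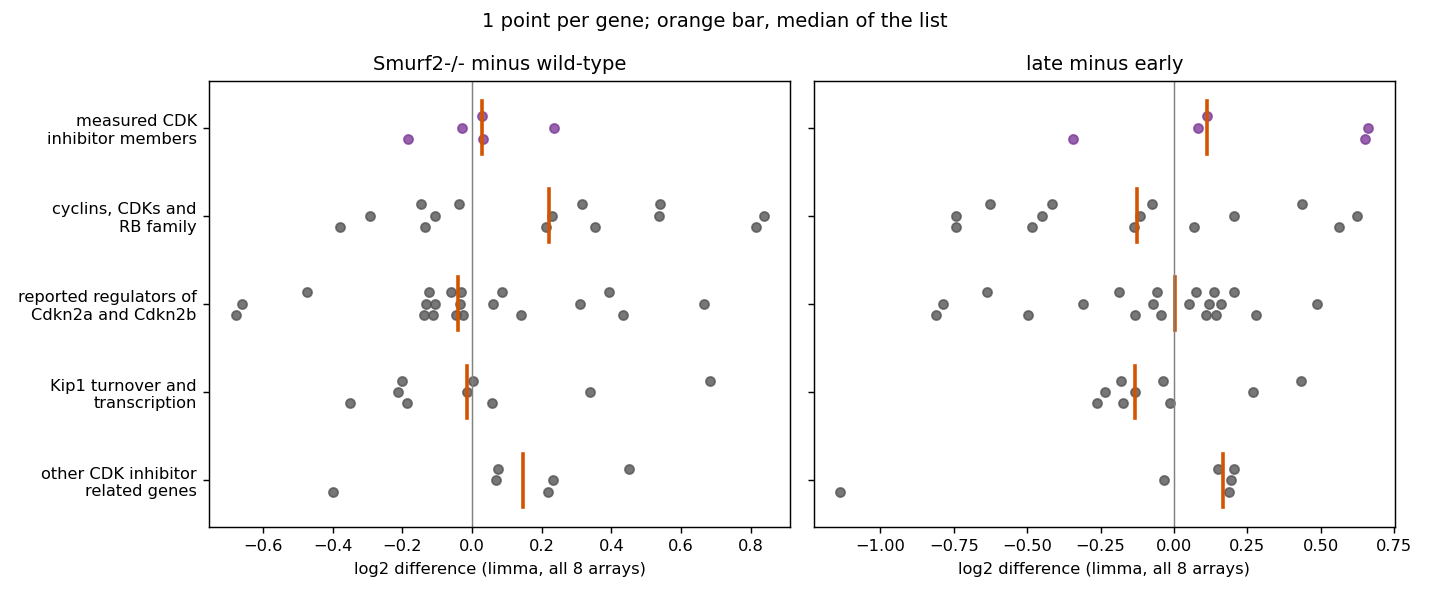
Log2 differences of the 5 measured CDK inhibitors and of the measured genes of 4 lists (cyclins, CDKs and RB family; regulators; Kip1 turnover; other CDK inhibitor related genes), with 1 point per gene and an orange bar at the list median, for genotype (Smurf2-/- minus wild-type, left) and passage (late minus early, right). The list medians of the cyclins, CDKs and retinoblastoma family are 0.22 by genotype and -0.13 by passage, and none of the genes plotted passed in limma.

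All 20 listed regulators of Cdkn2a and Cdkn2b were measured, among them Polycomb proteins that silence the locus and transcription factors that act on it. By genotype 7 were above and 13 below 0 (median -0.04), by passage 10 above and 10 below (median 0.0034) and by background 9 above and 11 below (median -0.02), and 0 rose and 0 fell in limma. At an unadjusted p under 0.05, 1 of the 20 passed for genotype, 5 for passage and 1 for background, against 7.55%, 17.3% and 13.5% of all genes. Ets1, an activator of p16Ink4a in human fibroblasts, was lower in late than in early arrays in all 4 pairs, by 0.64 ± 0.08 (limma, adjusted p = 0.0784). Id1, which opposes Ets factors on that promoter in human cells, was lower in late arrays in all 4 pairs, by 0.81 ± 0.25 (limma, adjusted p = 0.209). Tbx3, a repressor of the Arf promoter, was lower by 0.50 ± 0.15 (adjusted p = 0.207), and Smarcb1, a chromatin remodeller subunit, was higher by 0.28 ± 0.06 (adjusted p = 0.126). By genotype Id1 was lower in Smurf2-/- than in wild-type arrays by 0.66 ± 0.25, the Polycomb proteins Bmi1 and Ring1 by 0.11 ± 0.06 and 0.14, and Tbx3 was higher by 0.31 ± 0.15 (limma, adjusted p between 0.651 and 0.665).

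Of 10 genes of p27 turnover and transcription 9 were measured (Ube3a was not), and 0 rose and 0 fell in limma. By genotype 4 were above and 5 below 0 (median -0.02), by passage 2 above and 7 below (median -0.13) and by background 7 above and 2 below (median 0.12). At an unadjusted p under 0.05, 2 of the 9 passed for genotype, 1 for passage and 1 for background, against 7.55%, 17.3% and 13.5% of all genes. Skp2, the ubiquitin ligase subunit that marks p27 for degradation, was higher in late than in early arrays in all 4 pairs, by 0.43 ± 0.12 (limma, adjusted p = 0.186), as was Cdkn1b itself. By genotype Skp2 was higher in Smurf2-/- than in wild-type arrays by 0.34 ± 0.12 and its cofactor Cks1b by 0.68 ± 0.25, and Foxo1, a transcription factor that activates the p27 gene, was lower by 0.35 ± 0.17, none of which passed. The 6 other CDK inhibitor related genes, Cdkn1c among them, had 5 above and 1 below 0 by genotype (median 0.15), 4 above and 2 below by passage (median 0.17) and 2 above and 4 below by background (median -0.05), and 0 rose and 0 fell in limma. Of these 6, 2 had an unadjusted p under 0.05 for genotype, 1 for passage and 0 for background, against the same shares of all genes.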

How the data were processed

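RNA for 8 arrays was labelled with biotin and hybridised on the Affymetrix platform, per the labels. The authors deposited log2 values, from which each cluster's median had been taken away (largest row median 5e-07). How arrays were normalised and probes summarised is not given in the sources used here. Builds mm8 and mm9 stand in the submitters' processing notes, with no role. An exon array is named in the series text, but names were taken from a gene-level array's annotation, which the identifiers matched. Of 24169 clusters 19134 had 1 symbol, 1230 several and 3805 none, and 19067 were updated by identifier through a GRCm38.p6 gene table. Labels give embryonic day 14.5 in the descriptions and 11.5 in the growth protocol.

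A gene's value was the mean of its clusters with 1 symbol. All 17501 genes were fitted with limma 3.58.1 in R 4.3.3, without a trend, on genotype, background and passage class (4 residual degrees of freedom), each interaction being added in turn (3 residual degrees of freedom), with Benjamini-Hochberg adjustment over all genes and a threshold of 0.05. The number ending each title is the passage class, so this model holds the replicate block. Intervals are at 95%, and 15 exact permutation tests of 4 arrays against 4 were made on the members. The same test was run on the other listed genes and is given only for Cdkn1c. These permutation tests took no account of the matched pairs. The fits were tested on simulated data. The number of arrays limits the precision. Alternatives were quantile normalisation, leaving out X and Y linked genes, all 3 interactions together, single clusters, no replicate block and leaving out each array. A trend and a filter on dim clusters were not run, since centred values hold no mean level. The members and lists were chosen with earlier results of these data known. Listed genes were named as members, as up to 4 genes of the smallest p per list for genotype and passage, as neighbours of Cdkn2a, and as the 3 genes of highest r.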

Additional observations from a re-analysis of the deposited data

Results flagged for a closer look

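The late arrays of Cdkn2a held a value flagged as outlying. The Smurf2-/- mixed BL array stood at 1.03, against 0.07, -0.07 and -0.12 in the other late arrays, and its gap to the nearest was 0.833 of the whole range of the 4. Of 30 such groups of 4 arrays checked over the 5 measured genes this was the only one to exceed Dixon's critical value. By this rule the same array was not outlying among the mixed BL or the Smurf2-/- arrays. Chance marks about 1 in 20 where the 4 values are alike in kind. The late arrays mix genotypes and backgrounds, and the 30 groups share arrays, so that rate does not hold as such here.

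The passage difference of Cdkn2b had opposite signs in the backgrounds: both mixed BL pairs were below 0 (-0.54 in Smurf2-/- and -1.22 in wild-type cells) and both C57B6 pairs above 0 (0.08 in Smurf2-/- and 0.30 in wild-type cells). The interaction of passage with background was -1.07 ± 0.31 and did not pass in limma (adjusted p = 0.423). It was 1 of 15 interactions of the 5 genes looked at, each read in a single split of the pairs. The share of all genes with such a sign pattern was not counted. Split by genotype instead, the passage difference of Cdkn2a also had opposite signs. It was above 0 in Smurf2-/- and below 0 in wild-type cells of both backgrounds.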

How the results depend on the processing

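No measured CDK inhibitor passed in any alternative run (no replicate block was run for genotype only). The 5 genes called for genotype became 0 with quantile normalisation, 0 without X and Y linked genes, 0 with all 3 interactions, 3 with single clusters and between 0 and 1 when 1 array was left out; without the replicate block 4 were called, all among those 5. The 3 called for passage became 0 with all 3 interactions, 0 with single clusters and between 0 and 2 when 1 array was left out. The 14 called for background became 1 with quantile normalisation, 8 without X and Y linked genes, 1 with all 3 interactions, 66 with single clusters and between 1 and 21 when 1 array was left out. Under quantile normalisation the genotype difference was -0.0307 for Cdkn2b and -0.0334 for Cdkn2d, the passage by background interaction of Cdkn2a was -0.12 and the genotype by background interaction of Cdkn1b was 0.14, each with its sign turned. Leaving out 1 array turned the sign of small differences: genotype ranged over -0.24 to 0.24 for Cdkn2b, -0.38 to 0.19 for Cdkn2c and -0.18 to 0.14 for Cdkn2d; passage over -0.10 to 0.26 for Cdkn2a and -0.0225 to 0.33 for Cdkn2d; and background over -0.0722 to 0.28 for Cdkn2d. The genotype by passage interaction ranged over -0.41 to 0.87 for Cdkn2b, -0.17 to 1.32 for Cdkn2c and -0.37 to 0.10 for Cdkn1b. The passage by background interaction ranged over -0.48 to 0.49 for Cdkn2a and -0.16 to 0.78 for Cdkn2d, and the genotype by background interaction over -0.18 to 0.98 for Cdkn2b and -0.29 to 0.27 for Cdkn1b. The passage difference of Cdkn1b stayed between 0.56 and 0.75 (limma, adjusted p between 0.116 and 0.430). The cause of these shifts was not tested. Of the alternatives of member values, 36 turned the sign and 329 kept it and the side of the threshold. A mean-variance trend and a filter on dim clusters were not run, since centred values hold no mean level. With 1 array per combination a left-out array's combination holds no data, so its mean is assumed to follow the fitted model.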
